A study of Mus musculus with 6 samples.

Results

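Transcripts of 10 receptors for prostaglandins, bradykinin and histamine were examined in mouse dorsal root ganglia, which house the cell bodies of the body's touch, pain and itch neurons. The receptors were chosen by gene name: the prostacyclin receptor Ptgir, the prostaglandin E2 receptors Ptger1, Ptger2, Ptger3 and Ptger4, the bradykinin receptors Bdkrb1 and Bdkrb2, and the histamine receptors Hrh1, Hrh2 and Hrh3. They are 10 of the 54532 genes in the count table, and each was found there once. Bulk RNA sequencing was done on ganglia of Ash1l+/- mice and of wild-type (WT) littermates, with 3 libraries per genotype and no treatment named in the labels. Ash1l encodes a histone H3 lysine 36 methyltransferase. The sources used here do not give the allele's structure, the age of the mice, the ganglion levels taken or any pooling of animals. Nothing in the labels links a library to its own animal. A p-value here therefore reflects the spread among libraries, part of which may be technical.

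Injured or inflamed tissue releases prostaglandins, bradykinin and histamine, and some of their receptors on sensory endings make nociceptors respond to weaker stimuli. All 10 are G protein-coupled receptors. Ptgir, Ptger2, Ptger4 and Hrh2 raise cyclic AMP through Gs. Ptger1, Bdkrb1, Bdkrb2 and Hrh1 act mainly through Gq and phospholipase C or intracellular calcium. Ptger3 and Hrh3 lower cyclic AMP through Gi. Downstream kinases phosphorylate channels such as Trpv1 and the sodium channel Scn10a. Bdkrb2 is the constitutive bradykinin receptor, whereas Bdkrb1 is known as an inducible one that appears after injury. Hrh1 is associated with histamine itch.

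RefSeq's promoter table for GRCm38.p6 held windows for 8 of the 10 receptors. The 250 bases upstream of the annotated start are printed for Ptger3, the receptor that passed the test in 5 libraries, and for Ptgir, the receptor with the highest level. Both run 5′ to 3′ on the plus strand, from chr3:157566626-157566875 for Ptger3 and from chr7:16906240-16906489 for Ptgir. Capitals mark the GC box letters GGGCGG on either strand.
Ptger3: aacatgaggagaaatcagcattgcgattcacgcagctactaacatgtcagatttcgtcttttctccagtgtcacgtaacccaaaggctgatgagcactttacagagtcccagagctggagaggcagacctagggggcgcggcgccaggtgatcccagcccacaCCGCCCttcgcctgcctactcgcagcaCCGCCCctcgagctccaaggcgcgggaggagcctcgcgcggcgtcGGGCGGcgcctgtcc
Ptgir: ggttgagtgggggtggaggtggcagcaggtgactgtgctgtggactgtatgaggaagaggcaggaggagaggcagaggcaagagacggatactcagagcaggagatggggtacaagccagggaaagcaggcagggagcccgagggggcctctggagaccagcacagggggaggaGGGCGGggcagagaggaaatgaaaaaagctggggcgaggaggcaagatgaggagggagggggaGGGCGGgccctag
The Ptger3 window held 3 such matches and the Ptgir window 2, none overlapping another, and 32.7% of the 32851 windows of this length held at least 1. Neither window held the letters CCAAT (in 33.8% of all windows), TATAAA (12.4%) or TGACGTCA, the cyclic AMP response element (1.55%), on either strand. GC content was 62.0% for Ptger3 and 63.6% for Ptgir, against a median of 52.4% over all windows. Over all 12 windows of the 8 receptors, GC content ran from 38.0% in Ptger2 to 80.8% in Hrh3. Up to 4 GC boxes were found in a window, with 0 in the windows of Ptger2 and Bdkrb2 and in 2 of the 4 windows of Hrh1. CCAAT occurred once each in Ptger2, Ptger4 and Hrh3, and neither TATAAA nor TGACGTCA occurred in any of the 12. Such matches describe the sequence, and binding was not analysed here.

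Total counts ranged from 17209294 to 20545722 per library. WT replicate 2 stood apart: its log2 CPM (read counts set to a common library size by trimmed mean of M-values scaling) correlated with the other libraries at 0.8766 or less across genes, whereas the other 5 correlated with each other at 0.9814 or more. These correlations are over genes, which are not replicates. Each receptor is therefore described with all 6 libraries and with the 5 that leave out WT replicate 2. A further comparison of the 5 removed each library's trends with GC content and transcript length (called trends removed). For Ash1l itself, WT replicates 1, 2 and 3 had 60.9, 30.9 and 54.4 CPM and the libraries labelled Ash1l+/- 66.5, 66.5 and 68.9, so its counts do not check the labels.

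The levels of the 10 receptors were compared per length, as CPM per kilobase of exon, over the 5 libraries without WT replicate 2. The length was the full exon union, including bases shared with other genes, where reads cannot be assigned. Such bases made up 71.0% for Ptger1, 16.5% for Ptger4, 11.1% for Hrh3, 4.74% for Ptger2 and 2.44% for Hrh2. If reads there were not counted, the levels of these receptors are too low, most of all for Ptger1, so their places in the order are uncertain. Ptgir was the most abundant at 18.1 ± 0.961 CPM per kb (SD, n = 5), a level above that of 82.5% of the genes tested. Ptger3 followed at 9.38 ± 1.41, above 69.3% of genes. The ranges of these 2 receptors did not overlap, and both stood clear of the rest. Bdkrb2 was at 1.71 ± 0.186 CPM per kb, Ptger4 at 1.46 ± 0.0896, Hrh1 at 1.22 ± 0.121 and Hrh3 at 1.06 ± 0.183. The ranges of Bdkrb2 and Ptger4, of Ptger4 and Hrh1, and of Hrh1 and Hrh3 overlapped, although the first of each pair was the higher in 5 of 5 libraries. Hrh2 was at 0.703 ± 0.0679, Ptger1 at 0.503 ± 0.094 and Ptger2 at 0.3 ± 0.0416 CPM per kb. Hrh2 and Ptger1 overlapped in range, and Ptger1 and Ptger2 did not. The order was the same in each of the 5 libraries. The same lengths divide the counts in every library, so this repeat does not check the lengths, and levels over unshared bases alone were not computed. In WT replicate 2, Ptgir was still first, but Bdkrb2 (3.57 CPM per kb), Hrh3 (3.23), Ptger4 (2.23), Hrh1 (1.93) and Ptger1 (1.74) all stood above Ptger3 (0.985). Bdkrb1 had 0 reads in every library.

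**Figure D1:**
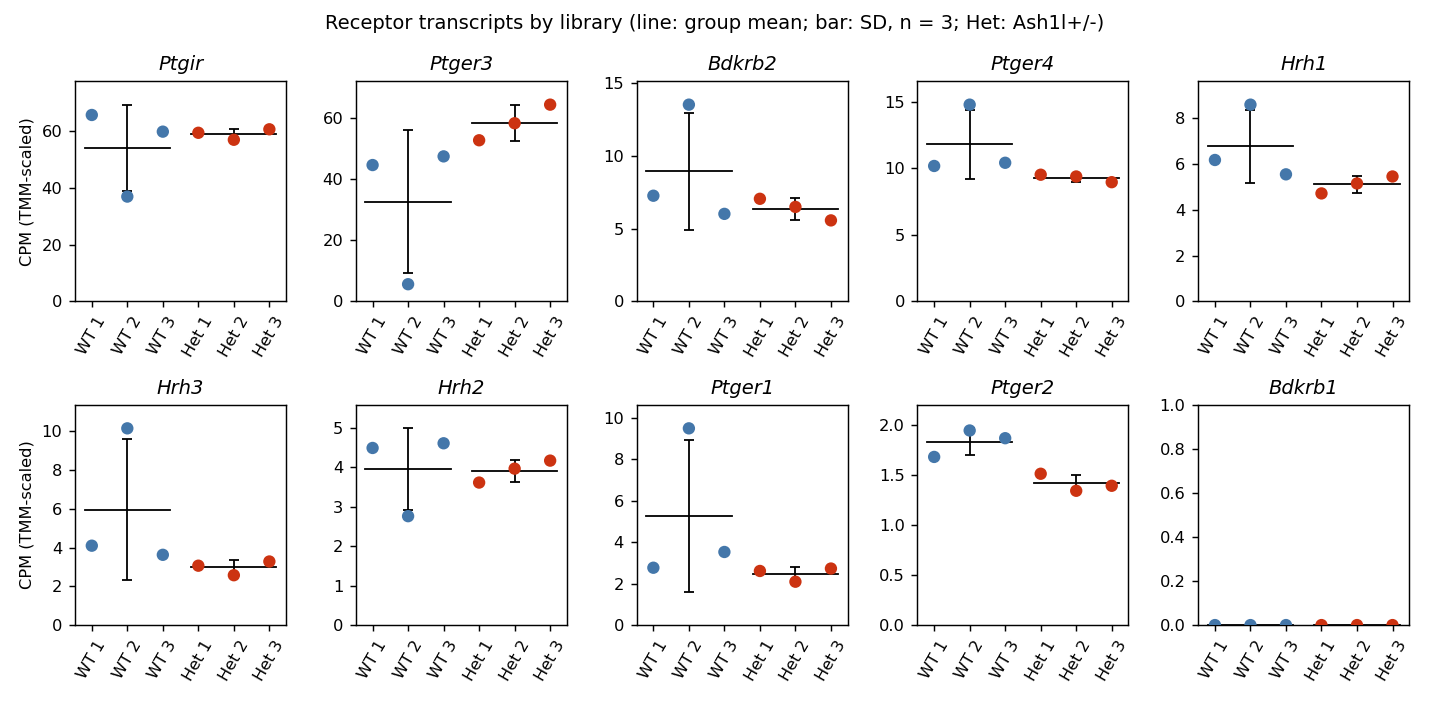
TMM-scaled CPM of each receptor in each library, one panel per receptor with its own linear axis from 0; blue points are WT, red points Ash1l+/- (Het), lines the group means and bars the SD (n = 3). Ptger3 in WT replicate 2 lies at 5.60 CPM, far below the range of 44.5 to 64.2 in the other libraries, and Bdkrb1 is at 0 throughout.

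Ptger3, the Gi-coupled prostaglandin E2 receptor, was higher in Ash1l+/- once WT replicate 2 was left out, and it was the only 1 of 9 receptors tested past the threshold, which 19.8% of all genes passed. It lies on chromosome 3 from 157566892 to 157645888 of GRCm38, on the plus strand (ENSMUSG00000040016), and shares no exon bases with another gene. WT replicates 1 and 3 were at 44.5 and 47.3 CPM (901 and 913 reads). Ash1l+/- replicates 1, 2 and 3 were at 52.6, 58.2 and 64.2 CPM (1149, 1084 and 1154 reads). Every Ash1l+/- library lay above both of these wild types. WT replicate 2 was at 5.60 CPM (75 reads), 8.20-fold below the mean of the other wild types. Across the 5 libraries this came to a log2 fold change of 0.35 (SE 0.09, adjusted p = 0.0128 in edgeR's quasi-likelihood test), a fold of 1.27 with a 95% interval from 1.11 to 1.45. Ptger3 also passed with trends removed, at a log2 fold change of 0.27 (SE 0.08, adjusted p = 0.0489). With all 6 libraries the change was 0.84 on the log2 scale (SE 0.70, adjusted p = 0.497), with an interval from -0.86 to 2.54. From the 5 libraries, leaving out WT replicate 1 as well gave 0.30 (adjusted p = 0.162) and leaving out Ash1l+/- replicate 3 gave 0.27 (adjusted p = 0.0679), so the call rests on those libraries. In bulk tissue, more RNA per cell and more cells of the type that makes it cannot be told apart. Splice forms of Ptger3 differ at the receptor's tail, and the counts sum over them.

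Ptgir, the prostacyclin receptor, lies on chromosome 7 from 16906490 to 16910905. It was at 65.6 and 59.8 CPM in WT replicates 1 and 3, at 36.9 in WT replicate 2, and at 59.4, 56.9 and 60.6 in Ash1l+/-. The groups overlapped with 6 libraries and with 5. Its log2 fold change was -0.09 in the 5 libraries (SE 0.08, adjusted p = 0.490), with a fold interval from 0.836 to 1.06, the narrowest of the 9 receptors tested. It was 0.12 with all 6 (adjusted p = 0.754) and 0.09 in the 5 with trends removed (adjusted p = 0.525), so its sign turned with the library set and with the trends.

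Ptger3 was also set against Ptgir inside each library, a ratio that does not depend on library scaling. On CPM per kb, Ptger3 stood at 0.397, 0.089 and 0.464 of Ptgir in WT replicates 1, 2 and 3. The ratio was 0.519, 0.599 and 0.621 in the Ash1l+/- replicates, each above every WT value. The mean log2 ratio was higher by 1.19 with all 6 libraries and by 0.429 without WT replicate 2. A two-sided exact permutation test gave p = 0.1 for 3 libraries against 3 and p = 0.2 for 3 against 2, the smallest values these designs allow. The ratio contains the Ptger3 values already tested in the same libraries, so it is not independent of that result.

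Ptger4, a Gs-coupled prostaglandin E2 receptor, had 161 to 208 reads per library. It was at 10.2, 14.8 and 10.4 CPM in WT replicates 1, 2 and 3 and at 9.52, 9.39 and 8.96 in Ash1l+/-. All Ash1l+/- values lay below all WT values, by a small margin against WT replicate 1. Its log2 fold change was -0.34 (SE 0.21, adjusted p = 0.406) with 6 libraries and -0.15 (SE 0.14, adjusted p = 0.509) with 5. With trends removed from the 5 it was -0.32, with an unadjusted p of 0.0277 and an adjusted p of 0.166. It lies on chromosome 15 from 5206661 to 5244187 on the minus strand, and 16.5% of its exon bases overlap other genes. Of those 1097 bases, 1015 belong to the processed pseudogene Gm15937, which had 2 reads in 1 library and 0 in the others. The remaining 82 belong to Ttc33 on the other strand, which had 924 to 1243 reads per library. Reads in any of the shared bases cannot be assigned, so the low Gm15937 count does not show how many fell there.

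Ptger2, also Gs-coupled, had 25 to 36 reads per library, so counting alone gives a coefficient of variation of 16.7% in the library with the most reads. WT was at 1.68, 1.94 and 1.87 CPM in replicates 1, 2 and 3, and Ash1l+/- at 1.51, 1.34 and 1.39. The Ash1l+/- values all lay below the WT values, and WT replicate 2 lay with the other wild types, 1.10 times their mean. On the log2 scale the change was -0.37 (SE 0.25, adjusted p = 0.435) with 6 libraries and -0.32 (SE 0.32, adjusted p = 0.525) with 5. The fold interval in the 5 ran from 0.504 to 1.28, the widest of the 9 receptors on the log2 scale, and no difference was detectable within it at this depth.

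Ptger1, the Gq-linked prostaglandin E2 receptor, was at 2.77, 9.49 and 3.53 CPM in WT replicates 1, 2 and 3 and at 2.61, 2.09 and 2.73 in Ash1l+/-. WT replicate 2 was 3.02 times the mean of the other wild types, and the remaining 5 lay close together, with the highest Ash1l+/- value just below the lowest WT value. Ptger1 had a log2 fold change of -1.07 (SE 0.51, adjusted p = 0.386) with all 6 libraries, -0.34 (SE 0.25, adjusted p = 0.374) with 5, and -0.11 with trends removed. Its counts are uncertain, because part of its exon sequence is shared with other annotation and the kit named in the labels keeps no strand, so reads there cannot be assigned.

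Of the bradykinin receptors, only Bdkrb2 was detected. Bdkrb2 (chromosome 12, 105563226 to 105595237) was at 7.26, 13.5 and 6.01 CPM in WT replicates 1, 2 and 3 and at 7.05, 6.49 and 5.57 in Ash1l+/-. WT replicate 2 was 2.04 times the mean of the other wild types, and the remaining libraries were mixed between genotypes. Bdkrb2 had a log2 fold change of -0.48 (SE 0.34, adjusted p = 0.444) with 6 libraries and -0.05 (SE 0.18, adjusted p = 0.861) with 5, where the fold interval ran from 0.744 to 1.25. Bdkrb1, the inducible receptor, starts 7847 bases after the end of Bdkrb2 on the same strand (chromosome 12, 105603085 to 105605428). Its 0 reads allow up to 3 counts, or 0.137 to 0.224 CPM depending on the library, and this limit covers counting error only. Bdkrb1 was not detected in either genotype and could not be tested.

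The histamine receptors were measured at low levels, none past the test. Hrh1, the Gq-coupled receptor (chromosome 6, 114397936 to 114483296), was at 6.18, 8.59 and 5.55 CPM in WT replicates 1, 2 and 3 and at 4.72, 5.15 and 5.46 in Ash1l+/-. The Ash1l+/- values all lay below the WT values, with the nearest pair 5.46 against 5.55. Its log2 fold change was -0.40 (SE 0.23, adjusted p = 0.399) with 6 libraries and -0.20 (SE 0.18, adjusted p = 0.474) with 5. Hrh2, the Gs-coupled receptor (chromosome 13, 54192129 to 54236180), was at 4.50, 2.76 and 4.61 CPM in WT and at 3.62, 3.97 and 4.17 in Ash1l+/-. WT replicate 2 was the lowest library, so the groups overlapped with 6 libraries and not with 5. Hrh2 had a log2 fold change of -0.02 (SE 0.27, adjusted p = 0.968) with 6 and -0.22 (SE 0.20, adjusted p = 0.487) with 5. Hrh3, the Gi-coupled receptor that restrains transmitter release (chromosome 2, 180099465 to 180104488, minus strand), was at 4.10, 10.2 and 3.63 CPM in WT and at 3.07, 2.58 and 3.28 in Ash1l+/-. All Ash1l+/- values were below all WT values, and WT replicate 2 was 2.63 times the mean of the other wild types. Hrh3 had a log2 fold change of -0.99 (SE 0.44, adjusted p = 0.386) with 6 libraries, -0.38 (SE 0.23, adjusted p = 0.262) with 5 and 0.01 (adjusted p = 0.981) with trends removed. Of its exon bases, 11.1% overlap the antisense gene Gm17180, which had 1 read in all, and reads in these bases cannot be assigned.

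Counted together, 0 of the 9 receptors tested passed edgeR's threshold with all 6 libraries, as did 0 of all 16032 genes tested (0%). At an unadjusted p under 0.05 the counts were 0 receptors and 1702 genes, and DESeq2 called 0 receptors and 35 genes. In the 5 libraries 1 receptor passed, Ptger3, or 11.1% of those tested, against 19.8% of all 16395 genes. The background was 9.39% of genes higher and 10.4% lower. The receptors' share of calls was therefore near or below that of all genes. With trends removed from the 5 libraries 1 receptor passed, again Ptger3, against 7.2% of genes in either direction, 2.68% higher and 4.53% lower. Log2 fold changes were below 0 for 8 of 9 receptors in the 5 libraries, with a median of -0.20 against 0.00 over all genes, and for 5 of 9 with trends removed, with a median of -0.11 against -0.01. The groups did not overlap for 6 receptors with 6 libraries (5 lower, 1 higher in Ash1l+/-), where 38.5% of all genes did not overlap, 19.3% higher and 19.2% lower. In the 5 libraries this held for 7 receptors (6 lower, 1 higher), against 49.2% of all genes, 23.9% higher and 25.3% lower. None of the receptors with lower values passed the test, and with 6 and with 5 libraries the fold interval of each included 1. With trends removed from the 5, the Ptger4 interval, not adjusted for the number of genes, ran from 0.661 to 0.973.

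**Figure D2:**
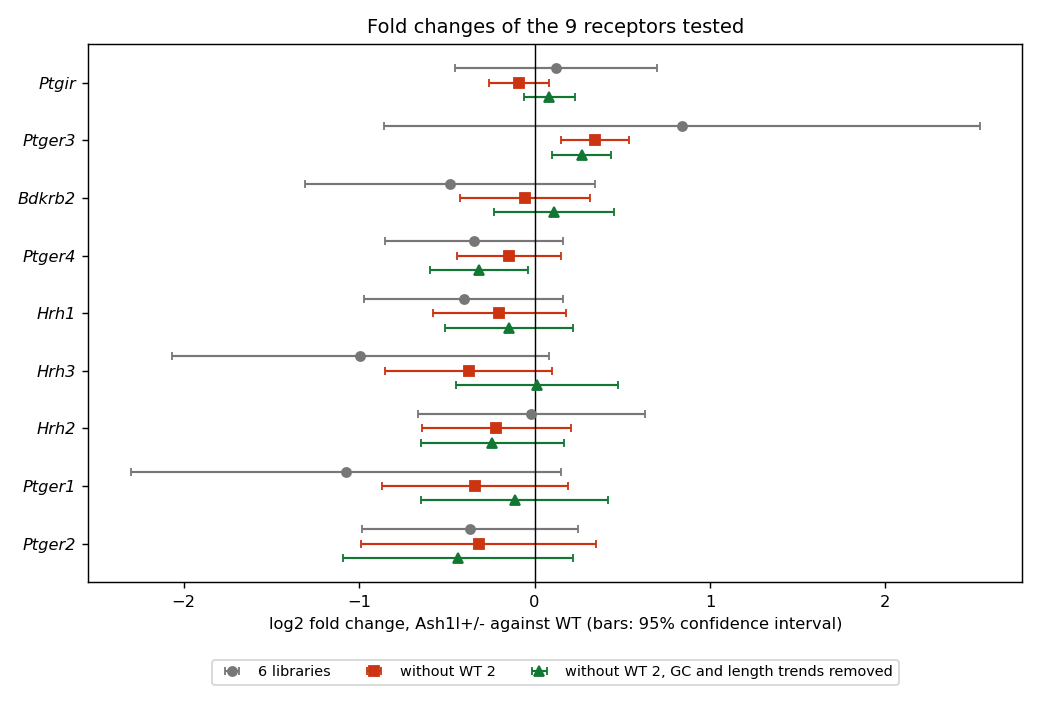
Log2 fold change of each tested receptor, Ash1l+/- against WT, with 95% confidence intervals, for 6 libraries (grey circles), without WT replicate 2 (red squares) and without it after removal of GC and length trends (green triangles). Without WT replicate 2, only the Ptger3 interval lies wholly above 0, whereas with 6 libraries it runs from -0.86 to 2.54. After removal of the trends the Ptger4 interval lies wholly below 0, from -0.598 to -0.039.

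As shares of the summed CPM per kb of the 10 receptors, the prostaglandin receptors made up 84.8% to 87.7% in the 5 libraries, the histamine receptors 7.83% to 9.79% and Bdkrb2 4.07% to 5.51%. The sum itself was 33.6 to 36.0 CPM per kb in these libraries. Ptger3 took 22.2% and 24.8% in WT replicates 1 and 3, against 27.4%, 30.3% and 31.3% in Ash1l+/-. Ptgir took 55.9% and 53.4% in those wild types and 52.8%, 50.7% and 50.5% in Ash1l+/-. Sorted by their main G protein, Gi-coupled receptors made up 25.9% and 28.2% in WT replicates 1 and 3, against 30.3%, 32.8% and 34.2% in Ash1l+/-, and Gs-coupled receptors 63.3% and 61.4% against 59.7%, 57.6% and 56.9%. These shares are not independent of each other or of the Ptger3 result, since they sum to the whole. They also rest on full exon lengths, so shared bases, most of all in Ptger1, make the shares of receptors and classes uncertain. WT replicate 2 had a different make-up, with 64.1% prostaglandin receptors, 22.0% histamine receptors and 13.9% Bdkrb2, and with Ptger3 at 3.85%. Its sum was 25.6 CPM per kb.

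**Figure D3:**
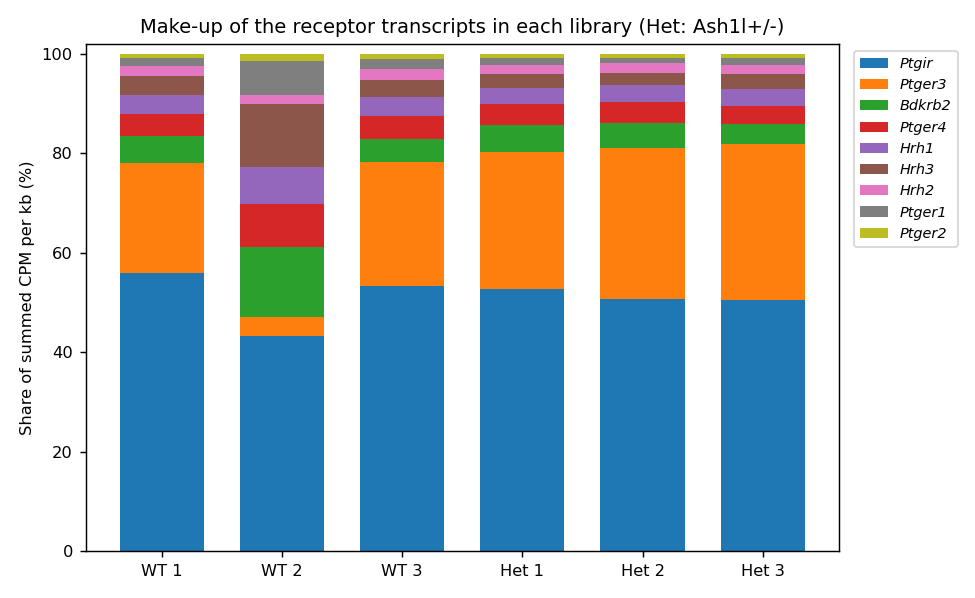
Stacked share of each receptor in the summed CPM per kb of the 10 receptors, by library (Het: Ash1l+/-). The Ptger3 share is 22.2% to 31.3% in 5 libraries and 3.85% in WT replicate 2, where Bdkrb2 (13.9%) and Hrh3 (12.6%) take more.

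The other genes of these pathways were followed as 7 lists of 92 genes in all. With 6 libraries 0 of the 82 tested passed in edgeR, with 5 at an unadjusted p under 0.05 and 0 in DESeq2. In the 5 libraries 11 of 83 rose and 9 fell, with a median log2 fold change of 0.04. These are 24.1% of the genes tested, near the 19.8% of all genes. With trends removed 3 rose and 1 fell, or 4.82% against 7.2% of all genes. Of 15 genes described below that passed in the 5 libraries, 0 passed in edgeR with all 6 (adjusted p from 0.385 to 0.914), and Ptges3 and Cacna1h then had the opposite sign. Leaving out WT replicate 1 as well ended 13 of the 15 calls, all but Mme and Gnas. Of the 15, 8 were lost without Ash1l+/- replicate 2, 7 without Ash1l+/- replicate 3, 5 without WT replicate 3 and 0 without Ash1l+/- replicate 1. Only Gnas and Prkcb were called in both of these analyses of the 5 libraries. Gnas encodes the Gs alpha subunit that Ptgir, Ptger2, Ptger4 and Hrh2 signal through. It was at 191 and 161 CPM in WT replicates 1 and 3, at 125, 85.0 and 77.6 in Ash1l+/-, and at 26.3 in WT replicate 2. Its log2 fold change was -0.87 (SE 0.13, adjusted p = 2.94e-04) in the 5 libraries, -0.79 (adjusted p = 1.95e-04) with trends removed and -0.40 (adjusted p = 0.724) with all 6. Gnas is an imprinted locus with several start sites, and 22.0% of its exon bases overlap the antisense gene Nespas or Gm20721, so its count is uncertain. Prkcb, a protein kinase C that diacylglycerol activates, had log2 fold changes of 0.27 (SE 0.08, adjusted p = 0.0216) and, with trends removed, 0.29 (adjusted p = 0.020), against 0.15 (adjusted p = 0.566) with all 6 libraries.

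Among other prostanoid receptors 1 of 3 tested rose in the 5 libraries, and none with trends removed. Ptgfr, the prostaglandin F receptor, was at 55.9 and 55.2 CPM in WT replicates 1 and 3, at 50.2 in WT replicate 2, and at 65.8, 61.6 and 68.8 in Ash1l+/-. Its log2 fold change was 0.24 (SE 0.08, adjusted p = 0.0462) in the 5 libraries and 0.01 (adjusted p = 0.976) with trends removed, and 0.28 (adjusted p = 0.385) with all 6. The prostaglandin D2 receptor gene Ptgdr was at 42.3 to 50.4 CPM over all 6 libraries and did not pass, and Ptgdr2 had 0 reads. Among genes that make, move or break down prostaglandins, 1 of 12 tested rose and 1 fell. Ptges3, a prostaglandin E synthase also known as the Hsp90 co-chaperone p23, had a log2 fold change of 0.32 (SE 0.08, adjusted p = 0.0089) in the 5 libraries. With all 6 it was -0.19 (adjusted p = 0.748), WT replicate 2 being at 300.5 CPM against 120.4 to 167 in the others, and without WT replicates 1 and 2 it was 0.20 (adjusted p = 0.255). Ptges2, a membrane-associated prostaglandin E synthase, had one of -0.34 (SE 0.10, adjusted p = 0.0191) in the 5 libraries and -0.97 (adjusted p = 0.385) with all 6. Neither passed with trends removed. The inducible cyclooxygenase gene Ptgs2 was at 0.156 CPM or below in every library and was too low to test.

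Among genes of kinin formation and breakdown 1 of 8 tested rose. Mme, the membrane peptidase neprilysin that degrades bradykinin, was at 23.8 and 22.6 CPM in WT replicates 1 and 3, at 11.2 in WT replicate 2, and at 32.1, 31.3 and 35.9 in Ash1l+/-. Its log2 fold change was 0.52 (SE 0.10, adjusted p = 0.00224) in the 5 libraries and 0.19 (adjusted p = 0.262) with trends removed, and 0.79 (adjusted p = 0.385) with all 6. The kininogen gene Kng1, Klk1 and F12 had 0 reads in all libraries. In the histamine list 0 of 5 tested passed in edgeR, with 1 at an unadjusted p under 0.05 and 0 in DESeq2. Its most abundant gene, the monoamine transporter Slc29a4, had a log2 fold change of -0.26 (adjusted p = 0.104) in the 5 libraries and -0.80 (adjusted p = 0.385) with all 6. Without Ash1l+/- replicate 1 as well, Slc29a4 passed at -0.39 (adjusted p = 0.0045). The list's receptor Hrh4 had 0 reads.

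Among G proteins, cyclases, phospholipases and kinases, 5 of 34 tested rose and 4 fell in the 5 libraries. Beside Gnas, these included Rapgef3, the cyclic AMP sensor Epac1, at a log2 fold change of -0.52 (SE 0.17), the adenylyl cyclase Adcy5 at -0.35 (SE 0.07) and the inositol trisphosphate receptor Itpr1 at 0.34 (SE 0.12). The kinases that desensitise such receptors, Grk6 and Grk2, fell by 0.30 and 0.21 on the log2 scale, 2 of 9 tested in their list, and none rose. Among channels sensitised downstream, 3 of 12 rose and 2 fell, including the sodium channel Scn9a at 0.46 (SE 0.09), the potassium channel Kcnq3 at 0.33 (SE 0.08), the pacemaker channel Hcn2 at -0.42 (SE 0.10) and the calcium channel Cacna1h at -0.35 (SE 0.10). None of these 9 genes passed with trends removed, where the heat and capsaicin channel Trpv1 rose by 0.26 (adjusted p = 0.0221) and the ATP-gated channel P2rx3 by 0.28 (adjusted p = 0.0282) on the log2 scale. Adjusted p-values of the 9 in the 5 libraries ranged from 0.00193 for Scn9a to 0.0474 for Itpr1. DESeq2 did not call Hcn2 (adjusted p = 0.0944) or Itpr1 (adjusted p = 0.0618). With all 6 libraries the log2 fold changes were -0.94 for Rapgef3, -0.28 for Adcy5, 0.52 for Itpr1, -0.24 for Grk6 and -0.42 for Grk2. For the channels they were 0.59 for Scn9a, 0.69 for Kcnq3, -0.81 for Hcn2 and 0.11 for Cacna1h, the last of the opposite sign. Without WT replicate 1 as well as replicate 2, Cacna1h was at -0.10 (adjusted p = 0.670), and leaving out single libraries of the 5 moved it between -0.56 and -0.10.

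**Figure D4:**
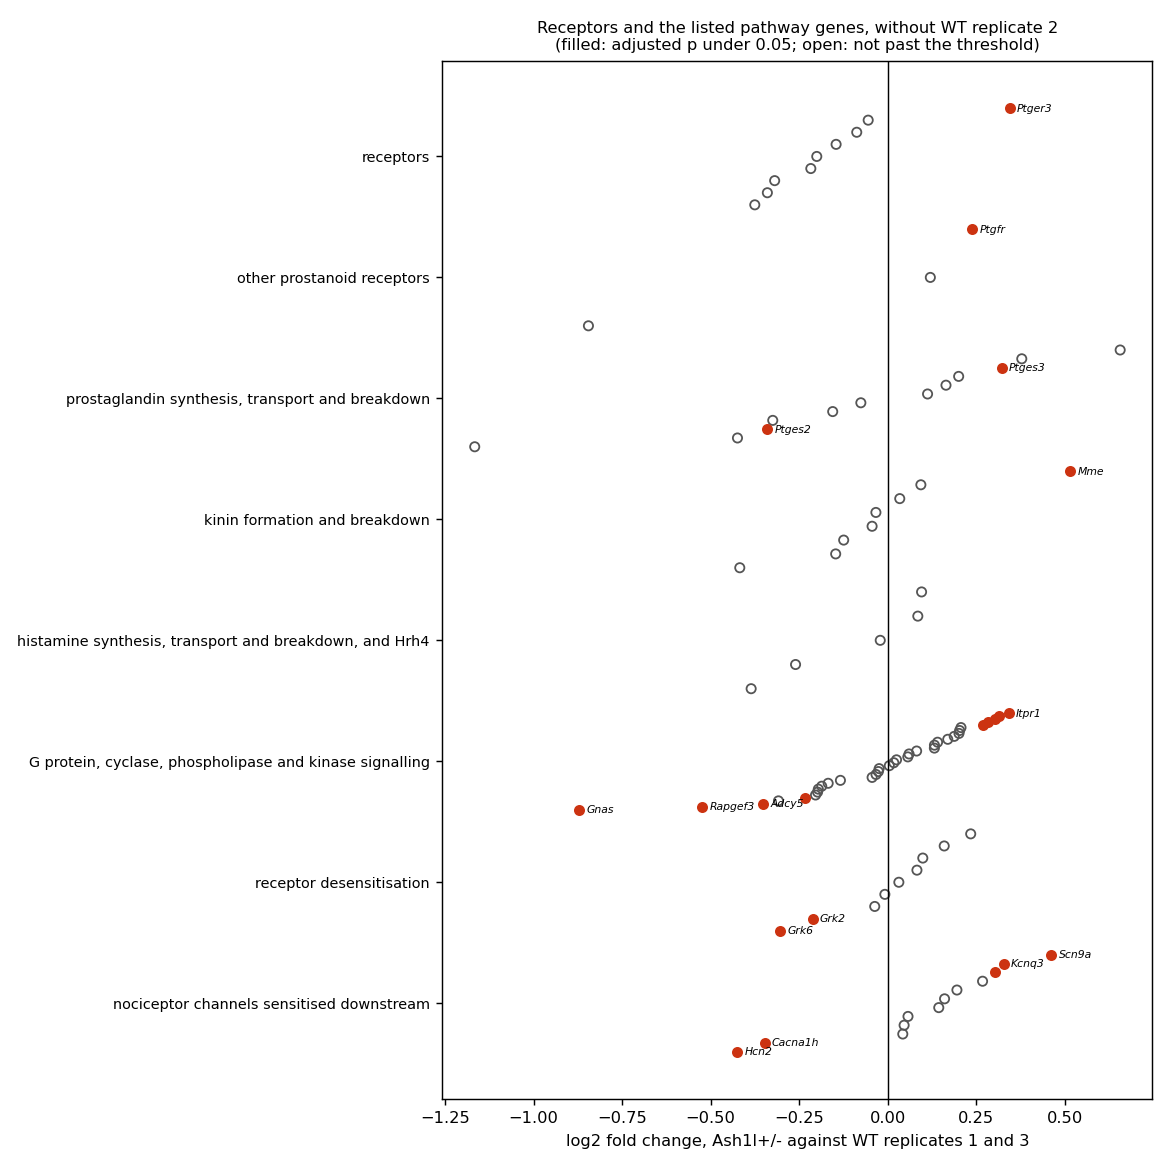
Log2 fold change of each tested receptor and listed pathway gene, Ash1l+/- against WT replicates 1 and 3, by list; filled points passed an adjusted p of 0.05 in edgeR and open points did not, and names are given for at most 4 genes past it in each list, those with the largest changes. Ptger3 is the only filled point among the receptors, and Gnas at -0.87 is the lowest filled point of all lists.

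Marker genes checked the tissue and the cells that could carry these receptors. None of the markers in 17 lists was at 0 in all libraries. The 10 sensory neuron markers summed to 16800 to 28100 CPM in WT and 16400 to 17700 in Ash1l+/-. Calls of markers are from the 5 libraries, where 9.39% of all genes rose and 10.4% fell, beside the Ptger3 result. Of the sensory neuron markers 1 rose and 2 fell, and with trends removed 3 rose and 1 fell. Of 6 peptidergic nociceptor markers 3 rose and 1 fell (3 and 0 with trends removed), with sums of 1560 to 2800 CPM in WT and 1610 to 1710 in Ash1l+/-. Of 6 non-peptidergic markers 1 rose and 2 fell (2 and 0 with trends removed), with sums of 1590 to 1850 against 1710 to 1790 CPM. Of 6 satellite glia markers 4 rose and 0 fell (1 and 0 with trends removed), at 3980 to 12100 against 3590 to 4330 CPM. Of 6 fibroblast markers 3 fell and 0 rose, as with trends removed, with sums of 839 and 847 CPM in WT replicates 1 and 3 and 666 to 749 in Ash1l+/-. Of 6 Schwann cell markers 2 fell and 0 rose (1 and 0 with trends removed), with sums of 4700 to 5800 against 3880 to 4610 CPM. Of 6 smooth muscle and pericyte markers 1 rose (0 with trends removed), with sums of 146 to 290 against 290 to 345 CPM. Macrophage markers summed to 46.2 to 114 against 39.1 to 42.2 CPM, and 0 of 8 passed in edgeR, with 0 at an unadjusted p under 0.05 and 0 in DESeq2. Mast cell markers summed to 54.2 to 100 against 86.8 to 90.3 CPM, and 0 of 5 tested passed in edgeR, with 1 at an unadjusted p under 0.05 and 0 in DESeq2; with trends removed 1 fell. In other lists 1 of 5 itch neuron markers rose, and 2 of 5 erythrocyte, 1 of 5 neutrophil and 1 of 3 adipocyte markers tested fell. DESeq2 called 0 in each of the last 3 lists. Of 4 central nervous system markers tested 1 rose and 2 fell (1 and 1 with trends removed). Of 6 endothelial markers 0 passed in edgeR, with 3 at an unadjusted p under 0.05 and 0 in DESeq2. The part of these cell types in the receptor values was not tested. In WT replicate 2 the sums relative to the mean of the other wild types were 1.67 for sensory neurons, 3.01 for satellite glia, 2.67 for endothelial cells, 0.69 for fibroblasts and 11.5 for skeletal muscle. They were 6.98 for erythrocytes, 3.52 for adipocytes, 2.47 for macrophages and 2.28 for neutrophils. Lower sums were also seen for central nervous system tissue (0.602), mast cells (0.542), smooth muscle and pericytes (0.535) and non-peptidergic nociceptors (0.891).

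Genes with the library profile most like the leading receptor of each ligand family were sought among 13445 protein-coding genes, by the root mean square difference of centred log2 CPM over 6 libraries. For Ptgir these were Ppm1f (0.0308), Casz1 (0.035) and Tbc1d2b (0.0395). For Bdkrb2 they were Espn (0.0257), Pcid2 (0.0437) and Chst1 (0.059), and for Hrh1 Dapk2 (0.0407), Sfi1 (0.0448) and Diaph1 (0.0452). The likeness rests on 6 libraries, of which WT replicate 2 stands apart.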

How the data were processed

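The members, lists and tests were chosen with earlier results of these data known. Per the labels' protocols, RNA of frozen ganglia was taken up in Trizol, and the library kit was NEBNext Ultra RNA. The authors deposited raw counts per gene. GRCm38 (mm10), featureCounts 1.5.0-p3 and HISAT2 2.0.5 appear in the submitters' processing notes. The deposited FPKM equal these counts divided by length and 1 library size per sample (0.7499 of the total in WT replicate 2, 1.021 to 1.0412 elsewhere) and served as an alternative. File lengths of the 10 receptors equalled their exon unions in GENCODE M21.

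Counts were filtered with filterByExpr, scaled by TMM and tested with edgeR 4.0.16 (quasi-likelihood, genotype only, R 4.3.3), with Benjamini-Hochberg adjustment over all genes tested and a threshold of 0.05. SEs are the log2 fold change over the square root of F. The fits were checked on simulated counts with the same dispersion for all genes and known changes only in genes above a set CPM. No library was made to stand apart and no GC or length trend was added. The check therefore does not cover WT replicate 2, the trends or low-count genes. GC and length trends were removed as a loess offset (span 0.3) from log2 CPM. Alternatives used DESeq2 1.42.0 and limma 3.58.1. No 2 libraries agreed within sampling noise (lowest chi-square per degree of freedom 3.908).

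All 10 receptors are named; pathway genes were named if past the threshold in the 5 libraries, at most 4 a list by size of change, or else by the highest level. Ptgdr, Ptgs2, Trpv1, P2rx3, Prkcb, genes overlapping a receptor and genes at 0 are named beside that rule, after their values were seen. The most similar genes were sought among genes of mean CPM 1 or more. Some listed markers were too low to test.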

Additional observations from a re-analysis of the deposited data

How the results depend on the processing

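With 6 libraries, 0 genes and 0 receptors were called in edgeR. DESeq2 called 35 genes and 0 receptors, and voom with library quality weights, which gave WT replicate 2 a weight of 0.0274, called 4179 genes and 1 receptor, Ptger3. Leaving out 1 library gave 0 to 3252 genes and 0 to 1 receptors, the higher values without WT replicate 2. In the 5 libraries the 3252 calls became 1181 with GC and length trends removed. Leaving out a further library gave 796 (without WT replicate 1) to 4198 genes, with 1855 without Ash1l+/- replicate 2 and 2120 without Ash1l+/- replicate 3, and 0 to 1 receptors, with 0 receptors without WT replicate 1 or Ash1l+/- replicate 3; where 1 wild type is left it is assumed to vary like the other group. Ptger3 kept its sign under all 14 alternatives of the 5-library fit, from 0.27 to 0.41, and passed in 12.

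Between the 6-library and 5-library fits, Ptges3 and Cacna1h, which passed in the 5, turned sign. Among the alternatives within each fit, the following values, which had not passed in that fit, turned sign. Ptgir stood at -0.11 with quality weights and, among the fits that left out 1 of 6 libraries, ranged from -0.0872 to 0.29. Hrh2 with 6 libraries was at 0.0214 with upper-quartile factors, 0.0799 with library totals (which move the median of all genes to 0.131), 0.0045 with no count filter, 0.0029 on log2(FPKM + 1) with or without the low-value filter, 0.0216 on log2(FPKM + 0.1), 0.0132 with the replicate block and -0.22 to 0.11 with 1 library left out. In the 5 libraries, removal of the trends gave 0.0851 for Ptgir, 0.11 for Bdkrb2, 0.0141 for Hrh3 and 0.0701 for Slc29a4, and leaving out 1 library gave -0.19 to 0.0843 for Bdkrb2. The cause was not tested. The order of levels was the same for 10 of 10 receptors on the deposited FPKM. These are the same counts over the same lengths, so this was fixed in advance and is no separate check.

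The replicate numbers are not shown to pair libraries: deviations of same-numbered libraries correlated at 0.000517, -0.0317 and 0.0378, and not every library correlated best with its own number. With the replicate block 0 genes were called with 6 libraries and 3982 with 5, where Ptger3 was at 0.34 (adjusted p = 0.00177). Removal of the trends from all 6 libraries, chosen after seeing the data, called 0 genes, with 907 at an unadjusted p under 0.05. Ptger2 was not tested on the filtered FPKM. Low counts limit Ptger1, Hrh2 and Hrh3, whose lowest library has a counting variation of 16.0%, 16.4% and 14.4%.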
